A study of Homo sapiens with 6 samples.

Results

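The cytosolic ribosomal protein genes are described here across 6 arrays of SH-SY5Y, an established human neuroblastoma cell line with sympathetic neuron features. Members were taken by symbol: RPSA, RPLP0, RPLP1, RPLP2, and names made of RPL or RPS, a number and at most an A or X, which leaves out symbols ending in L and the RPS6K kinases. The rule found 45 of 17687 measured genes, 26 of the large and 19 of the small ribosomal subunit. RefSeq lists 77 protein-coding symbols that fit it, and the other 32, RPSA, RPLP0, RPLP2 and RPL5 among them, are not analysed here. No filter on low values was applied, so all 45 were tested.

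Of the 6 arrays, 3 carried cells labelled 15EN and 3 carried cells labelled VC, which the labels expand to vehicle control; 15EN is not expanded. The series title names eurycomanone, a quassinoid of the plant Eurycoma longifolia. One treatment protocol is given for both groups: differentiation with atRA (all-trans retinoic acid) over 96 h, with a bioactive compound at 15 µM. Replicates 1, 2 and 3 of each group carry passages 33, 34 and 35 in titles and source names, although every description names passage 33. No label otherwise states that a group's samples came from separate cultures, and the p-values cover only array-to-array spread, part of which may be technical.

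A eukaryotic ribosome holds a single copy of most ribosomal proteins, and cells make them in matched amounts. Their mRNAs begin with a 5′ terminal oligopyrimidine (TOP) tract, a C followed by an unbroken run of C and T, through which mTORC1 and LARP1 control translation of the whole family. When ribosome assembly fails, free RPL5 and RPL11 bind MDM2 with 5S rRNA, which stabilises p53. Several ribosomal proteins have paralogs encoded by separate genes, such as RPS27L beside RPS27.

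The family's shared start is shown for the 4 members that passed the test, for RPS18 and RPS27 as members that did not, and for 2 paralogs outside the rule. Each window is 30 bases of RefSeq sequence (GRCh38.p14), 5′ to 3′, and the first transcribed base is base 16. Capitals mark the unbroken run of C and T that holds a first base of C or T.
RPL21, chr13:27251543-27251572, plus strand: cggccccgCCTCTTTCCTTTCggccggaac
RPL12, chr9:127451392-127451421, minus strand: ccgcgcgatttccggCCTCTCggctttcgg
RPL10A, chr6:35468386-35468415, plus strand: tgcgcaagacatgctagtctcttttccggt
RPS15, chr19:1438381-1438410, plus strand: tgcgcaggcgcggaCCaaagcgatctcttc
RPS18, chr6:33272060-33272089, plus strand: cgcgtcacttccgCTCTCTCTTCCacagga
RPS27, chr1:153990747-153990776, plus strand: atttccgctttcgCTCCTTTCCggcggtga
RPS27L, chr15:63157463-63157492, minus strand: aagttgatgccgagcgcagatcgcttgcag
RPL7L1, chr6:42879601-42879630, plus strand: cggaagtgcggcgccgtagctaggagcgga

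A start with C as the first base and an unbroken run of at least 5 C or T was found in 30 of the 41 members with a RefSeq start (73.2%), against 868 of 14250 genes (6.09%). Among the shown genes it is present in RPL21, RPL12, RPS18 and RPS27 and absent at the annotated start of RPL10A, RPS15, RPS27L and RPL7L1. The 30 members with such a start had a median log2 difference of -0.11, and the 11 without one had -0.10. This split rests on the exact annotated first base, and the windows of RPL10A and RPS15 hold runs of C and T further on. It is therefore not a comparison of mRNAs with and without a TOP tract. The motif CCGGAAG, searched on both strands of 300 bases around the start, was in 14 of 41 members (34.1%) and in 16.6% of all genes. TATAAA was in 1 of 41 members (2.44%) and 12.3% of genes, and CACGTG in 3 (7.32%) and 10.8%. A match, or its absence from the window, is a description of these letters only.

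The arrays had medians of 7.67 to 7.76 on the deposited log2 scale, and their number limits the precision. Correlations between arrays were 0.979 to 0.991 within 15EN and 0.990 to 0.992 within VC, and 15EN replicate 3 stood slightly apart from the other two. Without it 5 members passed the test given below, RPS15 and RPL18 higher and RPL14, RPL21 and RPL10A lower. The hybridization controls, spiked in at fixed amounts and read by 4 probe sets, averaged 10.31 to 10.60 on 15EN arrays and 11.22 to 11.37 on VC arrays. The protocol names 100 ng of RNA for both groups, and whether RNA per cell differed between them was not tested. Scaling the arrays to these controls would raise every difference by 0.87 and the median of all genes to 0.88, so differences below are relative to the common level of the arrays. Of 9 measured adrenergic neuroblastoma markers, 6 exceeded the 90th percentile of negative controls on all arrays (PHOX2A, HAND2, GATA2, GATA3, ISL1, TBX2); their list median was 11.37 to 12.10 on 15EN arrays and 12.27 to 12.55 on VC arrays. TH and DBH, which define catecholamine synthesis, are not among those 6. Mesenchymal neuroblastoma markers exceeded it for 6 of 9 genes, fibroblast markers for 2 of 4, glial markers for 0 of 3 and white blood cell markers for 0 of 3. In the test given below, 12.3% of all genes were higher in 15EN and 9.09% lower. Beside these shares, 4 of 9 adrenergic markers were lower in 15EN (PHOX2A, ISL1, DBH, CHGA). Of 9 mesenchymal markers 2 were higher (FOSL1, YAP1) and 2 lower (SNAI2, VIM), and 1 of 4 fibroblast markers was lower (COL1A1). Of the markers named as higher or lower, DBH, CHGA, FOSL1, YAP1 and COL1A1 did not exceed the negative control percentile on all arrays. The part of these shifts in the results below was not tested.

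Most ribosomal protein genes did not pass the test. In limma over all 17687 genes, 4 of 45 members passed an adjusted p of 0.05 (8.89%), against 21.4% of all genes and 36.6% of the 3896 genes at least as bright as the dimmest member. With scaling to the hybridization controls, 32 of 45 passed, all higher, as did 68.7% of all genes. In the scale as deposited RPS15 was higher in 15EN, and RPL21, RPL10A and RPL12 were lower, relative to the arrays' common level; with scaling to the hybridization controls RPL10A and RPL12 turned to 0.06 and 0.13 and RPL21 stayed below 0 at -0.24. By direction, 12.3% of all genes were higher and 9.09% lower, against 21.8% and 14.8% of those 3896 brighter genes. In bulk RNA, fewer cells of a type and less RNA per cell cannot be told apart.

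The differences of all 45 members ran from -1.11 to 0.96 on the log2 scale, with a median of -0.12, against 0.01 over all genes. Values were below 0 for 32 of 45 members (71.1%) and for 48.8% of all genes, but for only 1 of 45 members, RPL21, and 8.02% of all genes with scaling to the hybridization controls. The 95% interval lay within 2-fold either way for 34 of 45 members (75.6%). That share was 57.1% of all genes and 42.4% of the genes at least as bright as the dimmest member. For the remaining 11 members these arrays leave a 2-fold change in at least one direction within the interval.

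**Figure D1:**
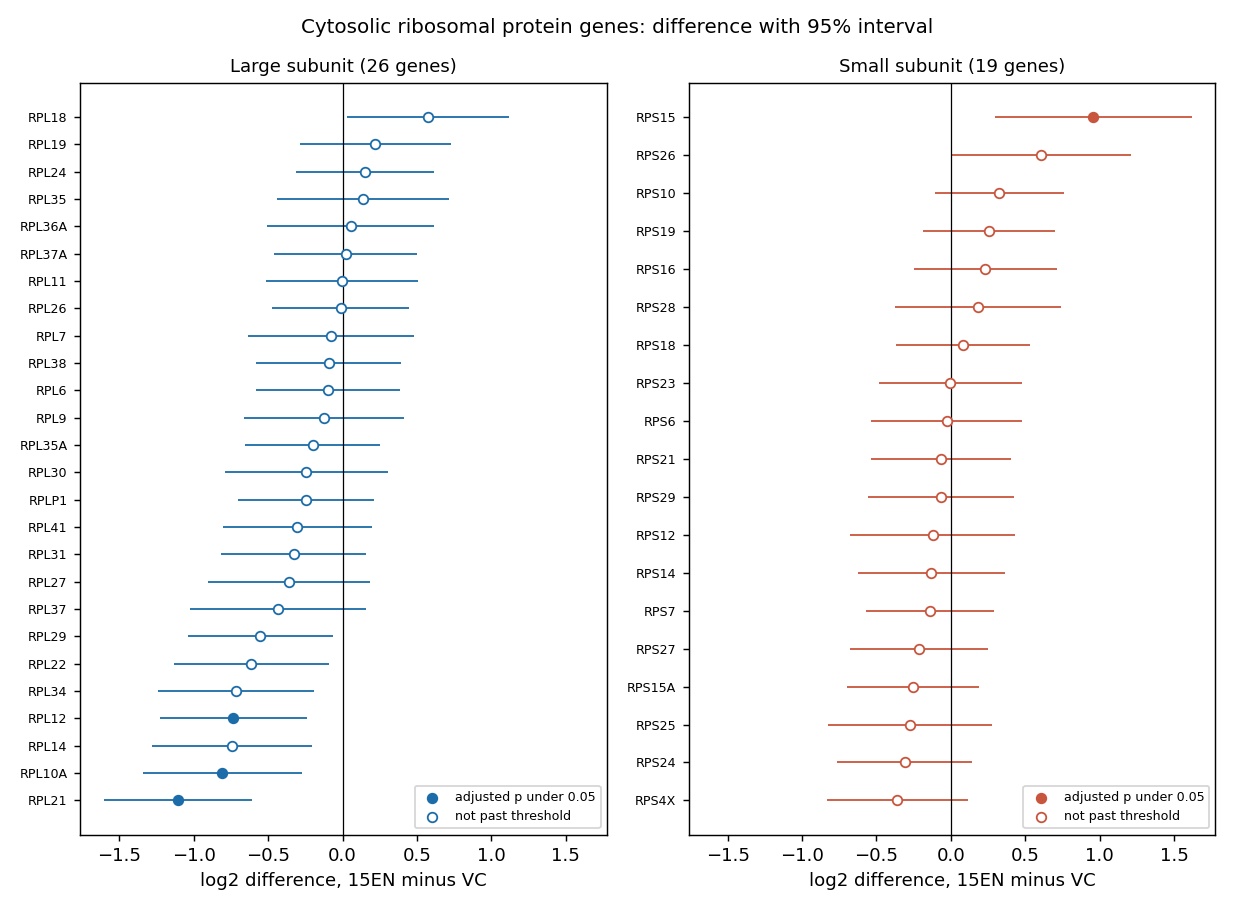
Log2 difference, 15EN minus VC, of each ribosomal protein gene (points) with its 95% interval from limma (lines), large subunit left and small subunit right, filled where the adjusted p is under 0.05. Of the 4 filled points, RPL21, RPL10A and RPL12 lie below 0 and RPS15 above it; scaling to the hybridization controls would move all points up by 0.87, which takes RPL10A and RPL12 above 0.

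RPL21, a large-subunit protein, had the lowest difference of the family. It gave log2 signals of 10.89, 10.86 and 10.36 on 15EN arrays, against 11.84, 11.68 and 11.90 on VC arrays. The groups did not overlap, and the difference was -1.11 ± 0.22 (SE, n = 3 each; limma adjusted p = 0.00611), 0.465-fold. It passed with each array left out in turn. Its probe set identifier codes chromosome 10, while RefSeq places RPL21 on chromosome 13, and it is the only member where the identifier and RefSeq disagree. Ribosomal protein genes have many processed copies in the genome, so which locus this probe set reads is uncertain.

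RPL10A forms the L1 stalk, which moves tRNA out of the exit site. It gave 10.53, 10.42 and 10.12 on 15EN arrays, against 11.41, 10.77 and 11.30 on VC arrays. Every 15EN array was below every VC array, by a mean of -0.81 ± 0.24 (SE, n = 3 each; limma adjusted p = 0.0369). It passed in 2 of 6 fits with an array left out, and the adjusted p reached 0.142 without VC replicate 1.

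RPL12 sits at the base of the P stalk, which recruits translation factors. It gave 14.75, 14.92 and 14.34 on 15EN arrays, against 15.49, 15.42 and 15.31 on VC arrays. The groups did not overlap, and the difference was -0.73 ± 0.22 (SE, n = 3 each; limma adjusted p = 0.0389). The adjusted p rose above the threshold in 5 of the 6 fits with an array left out, the highest being 0.124 without VC replicate 1. RPLP1, an acidic protein of the same stalk, gave 14.50, 14.25 and 14.64 on 15EN arrays, against 14.70, 14.70 and 14.72 on VC arrays. Its arrays did not overlap either, yet its difference of -0.24 ± 0.21 did not pass (limma adjusted p = 0.476).

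RPS15, a head protein whose tail reaches the decoding site, was the only member past the threshold in the higher direction. It gave 13.26, 13.63 and 12.94 on 15EN arrays, against 12.68, 12.56 and 11.71 on VC arrays. VC replicate 3 was the lowest of all 6, and the groups did not overlap. The difference was 0.96 ± 0.30 (SE, n = 3 each; limma adjusted p = 0.0437), 1.94-fold. It passed in 1 of 6 fits with an array left out (without 15EN replicate 3), with an adjusted p of 0.0141 there and up to 0.170 in the others, and did not pass after quantile normalization (0.0603) or removal of a brightness trend (0.0654).

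**Figure D2:**
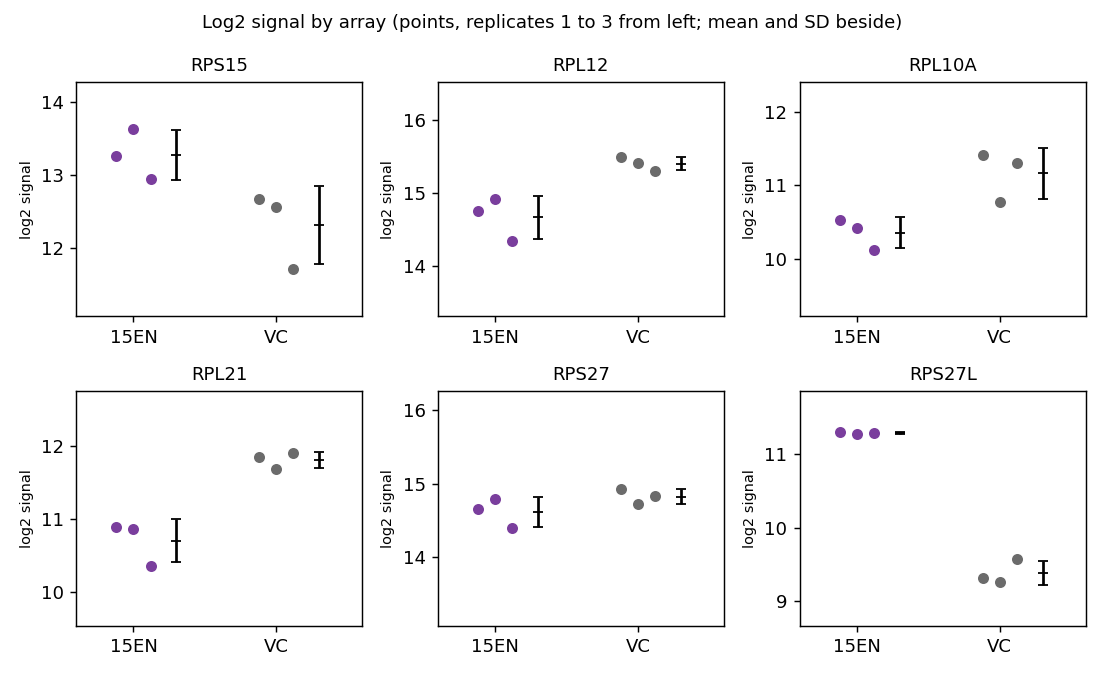
Log2 signal on each array (points, replicates 1 to 3 from left) with the mean and SD of each group beside them, 15EN left and VC right, for the 4 members that passed the test and for RPS27 and its paralog RPS27L; each vertical axis spans the same log2 range. The 15EN and VC points overlap for RPS27 and for no other gene shown, and scaling to the hybridization controls would raise the 15EN points by 0.87 relative to the VC points.

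Of the 45 members, 16 had groups that did not overlap (3 higher in 15EN, 13 lower), beside 36.3% of all genes (19.7% higher, 16.6% lower). Among the 3896 genes at least as bright as the dimmest member, 2242 did not overlap (1326 higher, 916 lower). RPL14 and RPL34, large-subunit proteins, came closest to the threshold without passing. RPL14 gave 14.34, 13.84 and 14.64 on 15EN arrays, against 15.10, 14.94 and 15.00 on VC arrays, a difference of -0.74 ± 0.24 (limma adjusted p = 0.0534, and 0.0437 with the replicate number as a block). RPL34 gave 13.20, 12.82 and 12.66 on 15EN arrays, against 13.90, 13.37 and 13.58 on VC arrays, a difference of -0.72 ± 0.24 (0.0547, and 0.0369 with the block). With that block 6 members passed, these and the 4 above. RPL22, whose paralog RPL22L1 is described below, had -0.61 (0.0929), and RPL29 had -0.55 (0.105).

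The other members whose groups did not overlap had smaller differences, none past the threshold. RPL41 had -0.30, RPS4X -0.36, RPS24 -0.31, RPS15A -0.25 and RPS7 -0.14, all lower on every 15EN array. The members not named elsewhere had overlapping groups. In the large subunit they ran from -0.44 for RPL37 to 0.15 for RPL24, with RPL27, RPL31, RPL30, RPL35A, RPL9, RPL6, RPL37A and RPL35 between. In the small subunit they ran from -0.27 for RPS25 to 0.23 for RPS16, with RPS14, RPS12, RPS29, RPS21 and RPS28 between.

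Among members whose difference pointed upwards, RPL18 (0.57 ± 0.24, limma adjusted p = 0.131) and RPS26, at the mRNA exit site (0.60 ± 0.27, 0.155), did not pass. RPS10 and RPS19, head proteins, had groups that did not overlap but small differences, 0.32 (0.297) and 0.25 (0.442). RPS19 gave 13.99, 14.24 and 14.25 on 15EN arrays, against 13.93, 13.86 and 13.93 on VC arrays. RPS19 is the gene most often mutated in Diamond-Blackfan anaemia. Of the 16 measured genes of that disease, 0 passed, with a median difference of -0.04. Beside that count stand 4 of all 45 members, 21.4% of all genes and 36.6% of the genes at least as bright as the dimmest member. Whether these disease genes differ from the other members was not tested.

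RPL11, the measured member of the 5S rRNA particle, gave 14.35, 13.88 and 14.13 on 15EN arrays, against 14.29, 13.83 and 14.26 on VC arrays. Its difference was -0.01 ± 0.23, with a 95% interval of -0.52 to 0.51. RPS6, the substrate of the S6 kinases, gave 14.80, 14.59 and 14.14 on 15EN arrays, against 14.59, 14.52 and 14.52 on VC arrays, a difference of -0.03 ± 0.23. Neither gene's arrays separated the groups. The 3 members of highest signal, RPL38 (-0.09), RPS23 (0.00) and RPS18 (0.08), were also not past the threshold. RPS23 lies at the decoding centre. The 3 of lowest signal were RPL10A, RPL29 and RPL21, of which RPL10A and RPL21 passed.

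The large subunit's 26 genes had a median difference of -0.22 (quartiles -0.52 and -0.01), and the small subunit's 19 genes had -0.07 (quartiles -0.17 and 0.21), beside 0.01 over all genes. Of large-subunit genes, 3 of 26 passed (11.5%), all lower. Beside them stand 9.09% of all genes and 14.8% of the genes at least as bright as the dimmest member. Of the 26 large-subunit genes, 20 were below 0, beside 48.8% of all genes. Of small-subunit genes 1 of 19 passed (5.26%), higher, beside 12.3% of all genes and 21.8% of those brighter genes. In the small subunit 12 of 19 were below 0. Relative to the VC mean of each gene, the large-subunit median was -0.07, -0.33 and -0.16 on 15EN arrays, against 0.14, -0.09 and -0.02 on VC arrays. The small-subunit median was -0.02, 0.02 and -0.02 on 15EN arrays, against 0.16, -0.08 and -0.04 on VC arrays. The 15EN and VC arrays overlap for both subunits when taken as groups. Within same-numbered pairs, the median over genes of 15EN minus VC was -0.18, -0.33 and -0.13 in the large subunit, below 0 in all 3 pairs, and -0.14, 0.10 and 0.02 in the small subunit.

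Large minus small subunit, the difference of medians was -0.16 in the fit. On single arrays it was -0.05, -0.35 and -0.13 for 15EN, against -0.02, -0.02 and 0.02 for VC, so all 15EN arrays lay below all VC arrays. Within same-numbered pairs 1, 2 and 3 it was -0.04, -0.43 and -0.15, so its size rested largely on pair 2. No test was made of this difference, since the members were chosen with results of these data known. With scaling to the hybridization controls the medians became 0.65 for the large and 0.80 for the small subunit, beside 0.88 for all genes; the scaling adds the same amount to every gene, so these gaps are fixed by its construction.

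**Figure D3:**
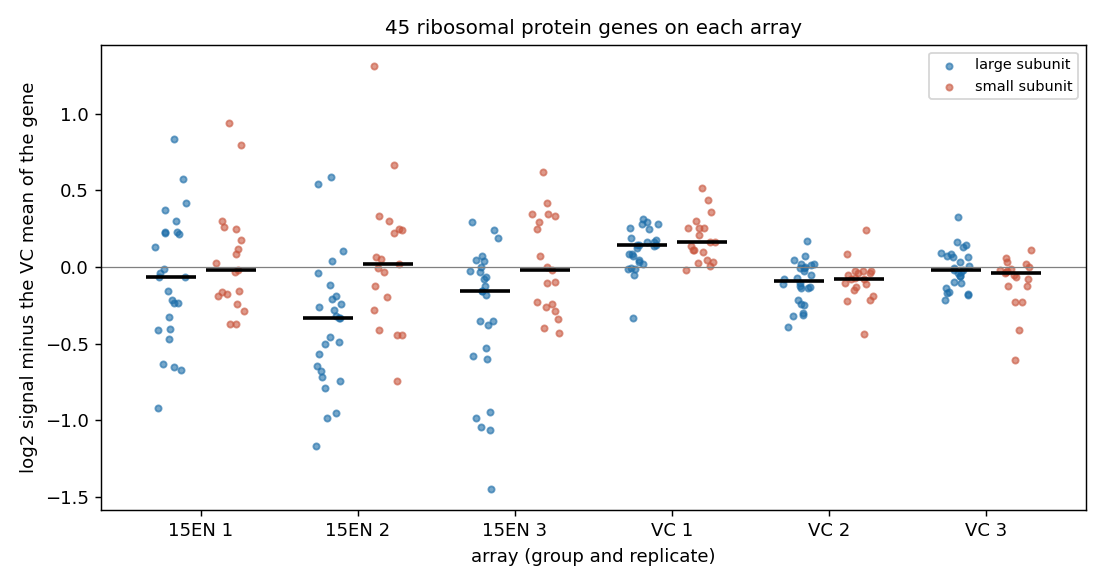
Log2 signal of each ribosomal protein gene on each array minus that gene's VC mean, with large-subunit genes left and small-subunit genes right at each array and black bars at the medians. The large-subunit median lies 0.33 below the VC mean on 15EN replicate 2 and 0.07 below it on 15EN replicate 1, while small-subunit medians on 15EN arrays lie between -0.02 and 0.02; scaling to the hybridization controls would raise the 15EN arrays by 0.87 relative to the VC arrays.

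By position on the ribosome, a list drawn up for the exit tunnel had 7 measured genes, with 0 past the threshold and a median of -0.01. RPL22 was lowest at -0.61 and RPL19 highest at 0.22. The list also held RPL24 (0.15), whose place at the tunnel was not established here. The 9 head proteins had a median of 0.18, with 1 past the threshold, RPS15. The 4 proteins of the mRNA exit and platform had 0 past the threshold and a median of 0.02. Beside these counts stand 21.4% of all genes and 36.6% of the genes at least as bright as the dimmest member. The lists are too small for the counts to separate positions, and no difference between positions was tested.

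Of 8 measured paralogs that the rule leaves out, 3 were higher in 15EN and 0 lower, beside 12.3% of all genes higher and 9.09% lower, with a median difference of 0.29. RPS27L, a p53-inducible paralog of RPS27, gave 11.31, 11.27 and 11.29 on 15EN arrays, against 9.32, 9.26 and 9.57 on VC arrays. That is a difference of 1.91 ± 0.20 (SE, n = 3 each; limma adjusted p = 0.000289), and the gene passed with each array left out. RPS27 itself gave 14.65, 14.79 and 14.39 on 15EN arrays, against 14.92, 14.72 and 14.83 on VC arrays. Its difference of -0.21 did not pass, and its groups overlapped.

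RPL7L1 gave 13.66, 13.16 and 13.21 on 15EN arrays, against 12.34, 12.31 and 12.36 on VC arrays, a difference of 1.01 ± 0.22 (limma adjusted p = 0.00825). RPL26L1 gave 9.79, 9.42 and 9.28 on 15EN arrays, against 8.98, 8.66 and 8.55 on VC arrays, a difference of 0.76 ± 0.23 (0.0375, passing in 1 of 6 fits with an array left out). RPL22L1 (-0.67, 0.0846) and RPL3L (-0.67, 0.133) did not pass, nor did RPL36AL (0.25), RPL39L (-0.11) and RPL10L (0.32).

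The change of a paralog minus the change of its partner was tested over arrays in 5 pairs. It was 2.12 for RPS27L and RPS27, 1.09 for RPL7L1 and RPL7, and 0.78 for RPL26L1 and RPL26. For RPL36AL and RPL36A it was 0.19 and for RPL22L1 and RPL22 -0.06. In an exact two-sided permutation test 3 pairs (all but RPL36AL and RPL22L1) reached p = 0.1, and 0.167 after Benjamini-Hochberg adjustment over the 5 pairs. A p of 0.1 is the smallest that 3 against 3 arrays allow, so no pair could pass 0.05. Before adjustment the permutation test gave 0.7 for RPL36AL and 0.9 for RPL22L1. The readthrough transcript RPS10-NUDT3, picked after its values were seen and given with no test, had 10.46, 10.50 and 10.70 on 15EN arrays, against 11.78, 11.86 and 11.68 on VC arrays. Other readthroughs of ribosomal protein genes were also looked at and are not described here. Probe sets of paralogs, readthroughs and processed copies can share sequence, so these values are uncertain as to locus. FAU, which encodes RPS30 fused to a ubiquitin-like protein, gave 9.85, 9.95 and 10.07 on 15EN arrays, against 9.19, 8.69 and 9.61 on VC arrays, a difference of 0.80 ± 0.26 that did not pass (0.0503, and 0.035 with the replicate number as a block).

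Genes that build or use ribosomes are given beside the proteins, and their counts stand beside 12.3% of all genes higher, 21.8% of the genes at least as bright as the dimmest member, and 9.09% of all genes lower. Of 38 ribosome biogenesis factors 30 were higher and 0 lower, with a median of 1.23; RPF2 (2.69 ± 0.26) helps load the 5S particle, and RRP1 (2.07 ± 0.19), UTP4 (1.98 ± 0.21) and EIF6 (1.88 ± 0.22) act in subunit maturation. Of 74 mitochondrial ribosomal proteins 41 were higher and 0 lower, with a median of 0.79, MRPS18B (2.69 ± 0.21) foremost. Of 30 initiation factors 14 were higher and 0 lower, with a median of 0.68, EIF2B2 (2.22 ± 0.26), a subunit of the eIF2 exchange factor, foremost. These lists were not tested against the ribosomal proteins.

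Other genes whose mRNAs are known to carry a TOP start were listed too. Of 13 measured, 2 were lower and 0 higher (15.4% called, beside 21.4% of all genes), with a median of -0.08: HNRNPA1, a splicing regulator (-0.86 ± 0.24, limma adjusted p = 0.0267), and NAP1L1, a histone chaperone (-0.81 ± 0.22, 0.0231), both of which turned to at most 0.06 with scaling to the hybridization controls. Each passed in 1 of 6 fits with an array left out, with an adjusted p of up to 0.098 for HNRNPA1 and 0.0963 for NAP1L1. BTF3 had 0.51 (0.126). Of 18 genes of mTORC1 and TOP control 5 passed (27.8%, beside 21.4% of all genes). Higher were SESN1 (1.23) and SESN2 (1.54), inhibitors of mTORC1. SESN2 passed in 1 of 6 fits with an array left out. Lower were DDIT4 (-1.36), also an inhibitor of mTORC1, and EIF4EBP2 (-0.91) and EIF4EBP1 (-0.71), repressors of cap-dependent translation; with scaling to the hybridization controls EIF4EBP1 turned to 0.16, and DDIT4 and EIF4EBP2 stayed below 0 at -0.49 and -0.04.

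**Figure D4:**
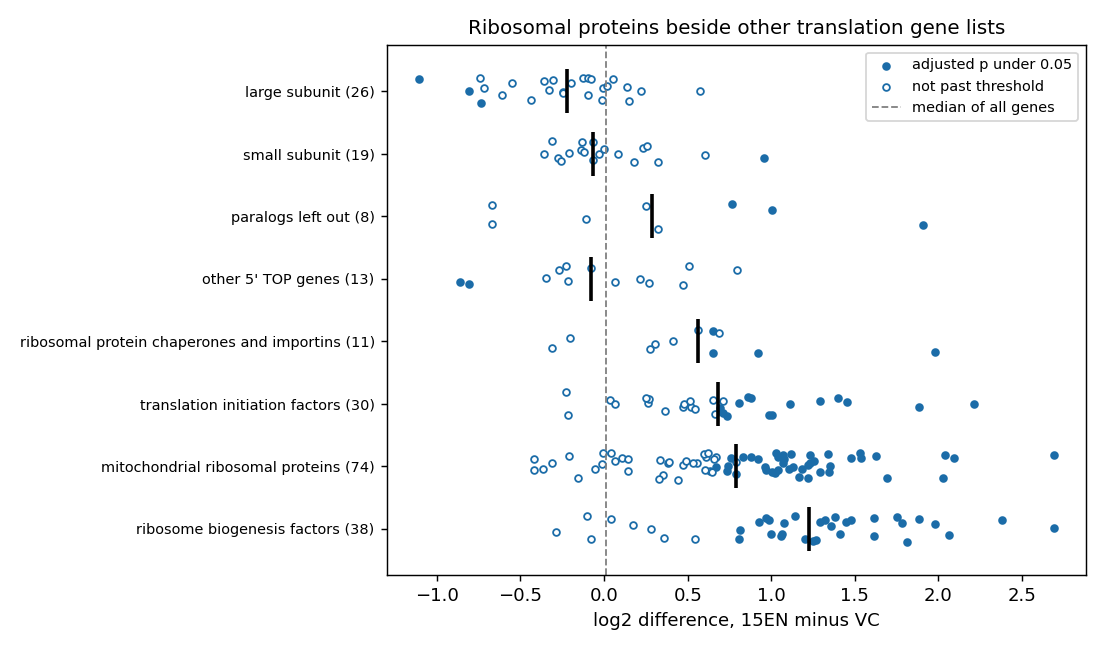
Log2 difference, 15EN minus VC, of each gene (points, filled where the limma adjusted p is under 0.05) in 8 lists, with the list median (black bar) and the median of all genes (dashed). The subunit medians lie at -0.22 and -0.07 and the biogenesis factors at 1.23; scaling to the hybridization controls would move all points up by 0.87.

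The next counts stand beside the same shares, 12.3% of all genes higher and 21.8% of the brighter genes. Of 5 measured genes of 5S particle assembly and p53 surveillance, 4 were higher: CDKN1A, the p53-induced cell cycle inhibitor (2.85 ± 0.53), RPF2, MDM2, the p53 ubiquitin ligase (2.24 ± 0.23), and RRS1 (1.62 ± 0.20). Of 11 chaperones and importins of ribosomal proteins 4 were higher and 0 lower, with a median of 0.56. They were GRWD1, a chaperone of RPL3 (1.98 ± 0.21), PDCD2L (0.92), the importin KPNB1 (0.65) and BCCIP (0.65). With an array left out, KPNB1 passed in 1 of 6 fits and BCCIP in 0. Of 15 quality control genes 4 were higher and 0 lower, with a median of 0.42; ASCC3, a helicase that splits stalled ribosomes, had 2.13 ± 0.28, its partner ASCC2 0.84, the ribosome rescue factor HBS1L 0.88 and TCF25 0.81, the last passing in 1 of 6 fits with an array left out.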

How the data were processed

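The authors deposited log2 signals for each probe set on each array, made with the Transcriptome Analysis Console per the submitters' processing notes; the version, summarization, normalization and genome build were not given in the sources used here. Of 24351 probe sets 2903 are controls, and 17709 gene probe sets carry 1 symbol in the platform annotation; the one of highest mean was kept per gene (22 set aside; 0 members have more than 1), leaving 17687 genes. The comparison used R 4.3.3 and limma 3.58.1 (functions lmFit and eBayes, group only, two-sided, Benjamini-Hochberg over all genes); errors beside differences are standard errors. Same-numbered arrays deviated together across genes (r = 0.229, 0.162 and 0.133, against -0.138 to -0.0165 for different numbers) and share a passage in the labels, so the replicate number was a block in an alternative. Deviations from group means cancel within a group, so the values for different numbers are tied to the others and are no independent contrast. Other alternatives were other normalizations and scalings, filters, priors and arrays left out. Named genes are members past the threshold with 1 direction in all 3 pairs (up to 12 per direction), fixed members and paralogs, the 3 brightest and 3 dimmest members and up to 4 genes of smallest p per list; RPL14, RPL34, RPL22, RPL29, RPL18, RPS26, RPS10, EIF4EBP1, the called cell markers, the paralogs' partners, the readthrough and the remaining members were added after their values were seen. Members and lists were chosen with earlier results of these data known. The fit was also run on simulated arrays. These were independent of each other and their changed genes were all raised, unlike the data here. That run therefore does not cover changes in both directions or same-numbered arrays that deviate together.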

Additional observations from a re-analysis of the deposited data

How the results depend on the processing

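As reported, 4 members passed. The count was 32, all higher, with scaling to the hybridization controls, 7 with array weights, 7 with a trended robust prior, 2 without moderation, 6 with the replicate block, and 1 to 5 with each array left out. It was 0 without both arrays of number 1 and 0 without both of number 2, where 6 and 5 members had an unadjusted p under 0.05 in limma. Of all genes, 21.4% passed as reported and 71.2% with scaling to the hybridization controls. Shares of all genes in the other settings are not given here, so these counts cannot be read as particular to the members. RPL21 was called in every fit with 1 array left out and not with both of number 1 or 2 left out or with scaling to the hybridization controls.

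The large-subunit median was -0.26 to -0.12 with each array left out and 0.65 with scaling to the hybridization controls. The small-subunit median was -0.07 to 0.00 with each array left out, 0.80 with that scaling, -0.18 after removal of the brightness trend and 0.064 without both arrays of number 1. The difference of medians was -0.23 to -0.08 with each array left out. That range does not cover the fits without both arrays of a number. Within same-numbered pairs 1, 2 and 3 the difference was -0.04, -0.43 and -0.15. Scaling to the hybridization controls adds 0.87 to every difference by construction, and 31 of the 45 members change sign with it. Among the genes named by rule the values became 0.061 for RPL10A, 0.86 for RPL11, 0.13 for RPL12, 0.32 for RPL29, 0.77 for RPL38, 0.62 for RPLP1, 0.87 for RPS23, 0.84 for RPS6, 0.76 for RPL39L, 0.196 for RPL22L1, 0.197 for RPL3L, 0.0076 for HNRNPA1 and 0.062 for NAP1L1.

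Other sign changes were of differences not past the threshold in either fit. RPL11 reached 0.059 without both arrays of number 3, 0.055 with array weights and -0.15 to 0.11 with each array left out. RPS23 reached 0.050 with quantile normalization, 0.066 and 0.026 without both arrays of number 1 and of number 2, 0.013 with array weights and -0.070 to 0.13 with each array left out. RPS6 reached 0.15 without both arrays of number 3, 0.11 with array weights and -0.17 to 0.16 with each array left out. RPS18 reached -0.016 without both arrays of number 3, RPL39L 0.18 without both of number 2, and RPL10L -0.16 without both of number 3 and -0.034 with array weights. With each array left out, RPL38 ran from -0.22 to 0.017, RPL39L from -0.23 to 0.076 and RPL10L from -0.17 to 0.61.

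Of the values of single genes, 777 kept direction and side of the threshold, 125 lost the threshold, 13 passed it anew and 34 changed sign. Causes were not tested. The number of arrays limits what these data can show.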
